A study of Homo sapiens with 8 samples.

Results

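In U-937, a human monocytic leukaemia line, 6343 regions of accessible chromatin were called after treatment with ATRA and Corin together and in none of the other 3 conditions. These were 6343 of the 161291 regions (3.93%) obtained by merging overlapping peaks of the 4 deposited peak lists on chromosomes 1 to 22, X and Y, here called union regions. A region was taken when a peak of the combination list overlapped it and no peak of the DMSO, ATRA or Corin list did, so the members were selected on the measured calls, and their number and strength are given as a description. The cells had received DMSO as the vehicle, ATRA at 0.1 µM, Corin at 0.1 µM, or both compounds at 0.1 µM each (the combination) for 24 h, with 2 samples in each of the 4 groups. Accessibility was measured by ATAC-seq, in which a transposase inserts sequencing adapters into DNA that is not packed away. Each group had 1 list in which its samples were already combined, so replicate error cannot be given and no treatment difference could be tested. The read depth is unknown, and the 95% Wilson intervals given below cover counting error over regions only.

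All-trans retinoic acid (ATRA) binds the retinoic acid receptors (RAR). These sit on DNA with a retinoid X receptor partner, at paired copies of a short half-site, and release co-repressors when the ligand is present. Corin inhibits the CoREST co-repressor complex at both of its enzymes, the histone demethylase LSD1 (KDM1A) and the histone deacetylases. CoREST is brought to DNA by factors such as GFI1 in blood cells and REST at neuronal genes. PU.1, the C/EBP family and RUNX factors shape the open chromatin of monocytic cells, and AP-1 binds many of their inducible enhancers.

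The labelled cell type was checked on gene starts. Of 12 monocytic marker genes, 11 had a peak within 1 kb of a start in each of the 4 lists, and MPO had none in any. Of 14 genes of other cell types, 8 had such a peak in the DMSO list, 6 in the ATRA list, 7 in the Corin list and 6 in the combination list. The T cell genes CD3E and CD3D, the B cell gene MS4A1, the erythroid genes HBB and KLF1 and the hepatocyte gene ALB had none in any list.

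Sequences at the summits of 11 of the 6343 regions are printed first, and each of them holds a motif match. They do not stand for all members, since 40.7% of the members held none of the 22 motifs searched. Among the strongest regions described below, those at LPIN2, EPOR and SLC8A2 and the intergenic one nearest CCN4 held no match and are not printed. The motif results below are shares of such windows over all regions of a set. Each is 200 bp of hg38, plus strand, centred on the summit of the strongest peak, with motif matches in capitals. The first 5 belong to the strongest regions by the authors' −log10 p, and carry a CTCF motif at ARHGEF2, AP-1 and PU.1 motifs at IL18R1, a PU.1 motif and a RAR half-site at MAPK6, 2 RAR half-sites at UBAC2, and neither a RAR nor a PU.1 match at TAOK3, where the capitals mark a CCAAT box. CCAAT and GATA matches of the other windows are in capitals too.
ARHGEF2 intron, chr1:155983821-155984020: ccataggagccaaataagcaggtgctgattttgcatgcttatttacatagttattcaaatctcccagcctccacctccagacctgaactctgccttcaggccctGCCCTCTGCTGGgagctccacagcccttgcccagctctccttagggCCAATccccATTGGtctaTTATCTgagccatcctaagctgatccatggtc
IL18R1 intron, chr2:102358052-102358251: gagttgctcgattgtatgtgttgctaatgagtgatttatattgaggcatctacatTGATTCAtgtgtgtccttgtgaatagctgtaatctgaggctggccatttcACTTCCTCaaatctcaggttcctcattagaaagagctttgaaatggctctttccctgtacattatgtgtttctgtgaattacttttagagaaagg
MAPK6 intron, chr15:52009009-52009208: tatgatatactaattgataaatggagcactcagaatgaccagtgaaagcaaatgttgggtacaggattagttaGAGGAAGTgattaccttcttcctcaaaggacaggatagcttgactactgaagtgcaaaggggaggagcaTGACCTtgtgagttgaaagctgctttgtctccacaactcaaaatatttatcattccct
UBAC2 and GPR183 introns, chr13:99302025-99302224: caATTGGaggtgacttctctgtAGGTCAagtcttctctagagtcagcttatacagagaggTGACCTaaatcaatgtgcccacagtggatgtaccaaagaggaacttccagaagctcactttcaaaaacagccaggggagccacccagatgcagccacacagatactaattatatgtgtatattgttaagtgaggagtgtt
TAOK3 intron, chr12:118342133-118342332: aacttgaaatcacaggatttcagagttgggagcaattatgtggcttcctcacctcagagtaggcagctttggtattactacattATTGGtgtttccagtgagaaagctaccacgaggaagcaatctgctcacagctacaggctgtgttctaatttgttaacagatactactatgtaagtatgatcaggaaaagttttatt

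The next pair stood 7060 bp (RGS6) and 11251 bp (REEP1) from the nearest peak of another list and was chosen after its values were seen. Over all members the median of this distance was 2818 bp and the upper quartile 7412 bp. The pair shows a RAR half-site with a RUNX match and a CCAAT box at RGS6, and with a PU.1 match at REEP1.
RGS6 intron, chr14:72543378-72543577: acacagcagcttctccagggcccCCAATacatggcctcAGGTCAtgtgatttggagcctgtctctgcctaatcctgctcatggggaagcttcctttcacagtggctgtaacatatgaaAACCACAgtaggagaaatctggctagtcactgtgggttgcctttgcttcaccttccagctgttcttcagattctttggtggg
REEP1 intron, chr2:86244078-86244277: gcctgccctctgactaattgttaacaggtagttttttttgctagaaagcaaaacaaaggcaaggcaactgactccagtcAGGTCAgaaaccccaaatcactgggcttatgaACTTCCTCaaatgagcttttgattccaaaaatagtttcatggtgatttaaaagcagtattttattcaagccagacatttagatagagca

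The last 4 are the strongest members with a spacer-5 repeat, the arrangement of a pair of RAR half-sites in the same direction with 5 bases between them that RAR is best known to bind. Each copy was matched as RGKTCA, where R is A or G and K is G or T, so it can differ from the half-site AGGTCA. In none of the 4 are both copies AGGTCA. In these 4 only the repeat is in capitals.
Intergenic, chr11:124538094-124538293: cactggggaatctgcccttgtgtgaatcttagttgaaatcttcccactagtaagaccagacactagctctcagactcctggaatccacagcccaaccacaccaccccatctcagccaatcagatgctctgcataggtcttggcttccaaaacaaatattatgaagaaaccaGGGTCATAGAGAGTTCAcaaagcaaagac
NF1 intron, chr17:31371836-31372035: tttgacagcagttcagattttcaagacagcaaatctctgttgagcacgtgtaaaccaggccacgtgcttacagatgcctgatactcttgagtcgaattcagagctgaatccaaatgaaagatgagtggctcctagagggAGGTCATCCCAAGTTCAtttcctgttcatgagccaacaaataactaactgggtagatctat
ZMIZ1 intron, chr10:79191977-79192176: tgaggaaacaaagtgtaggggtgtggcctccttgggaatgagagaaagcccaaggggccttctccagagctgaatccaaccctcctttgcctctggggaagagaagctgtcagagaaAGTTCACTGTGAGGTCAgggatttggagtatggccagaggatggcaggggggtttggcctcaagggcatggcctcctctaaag
Intergenic, chr15:62967244-62967443: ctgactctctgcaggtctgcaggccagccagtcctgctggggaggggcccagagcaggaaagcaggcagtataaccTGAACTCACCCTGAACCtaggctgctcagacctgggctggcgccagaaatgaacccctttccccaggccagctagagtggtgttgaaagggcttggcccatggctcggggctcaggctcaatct

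The 6343 regions were mostly weak. They made up 6.80% (95% Wilson interval 6.64 to 6.97) of the 93253 union regions with a combination peak. By the authors' −log10 p, their median was 5.81, the quartiles were 4.49 and 8.02 and the highest reached 122, while the 86910 combination regions with a counterpart in another list had a median of 82.5. The fold of the strongest peak over its local background, also the authors' value, had a median of 2.22 in the members and 6.72 in the regions with a counterpart. The members were narrower as well, at a median width of 383 bp against 811 bp. When the combination regions were divided into 20 classes of equal size by −log10 p, the members were 53.7% of the weakest class, 36.1% of the next, 21.3% of the one after it and 10.2% of the fourth. None of the 7 strongest classes held a member. Only 2251 members (35.5%) reached a −log10 q of 5, 124 reached a fold of 4 and 32 a −log10 p of 50.

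**Figure D1:**
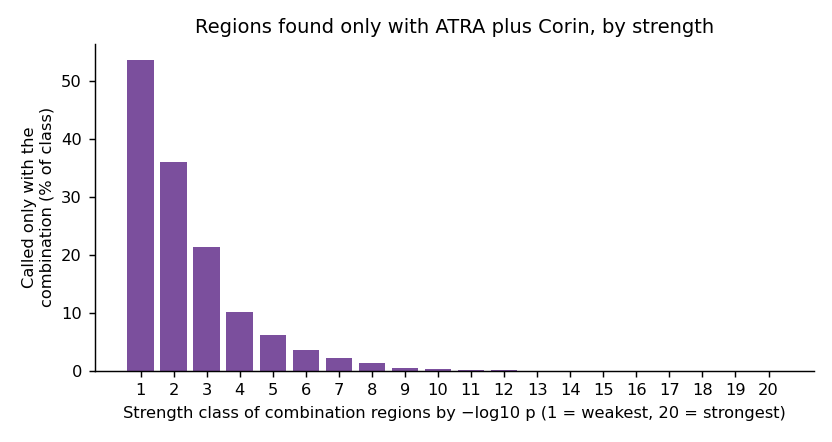
Share of combination regions called in no other list (y axis, percent) in 20 classes of equal size by −log10 p (x axis, 1 the weakest). Bars stand for 1 list and have no replicate error. The share was 53.7% in the weakest class, and classes 14 to 20 held none.

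The lists of 1 condition each differed in how many regions stood alone. The share of a list's regions called in no other list was 6.80% in the combination list, 13.1% in the Corin list, 16.6% in the ATRA list and 14.5% in the DMSO list. Beside the members, 5165 union regions were called with ATRA and the combination and in neither other list, and 2428 with Corin and the combination. The lowest −log10 p was 2.79 in the DMSO list and 2.00 in the other 3, and 148 members lay below 2.79.

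Of the members, 3 lay within 10 bp of a peak of another list, with −log10 p from 4.26 to 5.24. Just outside the rule, 6 combination regions were overlapped by another list over 1 to 10 bp, with −log10 p from 3.23 to 7.89. The median distance from a member to the nearest region of another list was 2818 bp, and 1023 members lay within 500 bp and 5158 within 10 kb. These distances were not set beside those of other regions.

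The pileup of reads and the local background were solved from the authors' p and fold, and the members were divided at a set cut on background. The cut lay close to the members' median background of 14.655, so the 2 groups are of about equal number. In combination regions with a counterpart the median background was 21.45. In 3150 members (49.7%) the background was at the base level of the combination list, under 1.05 times its most frequent value of 13.94. These stood at a median of 5461 bp from any other list's region, had a median fold of 2.32 and a highest pileup of 117. In the other 3193 (50.3%) the background was raised, the median distance was 1613 bp and the median fold 2.15. The highest −log10 p, 122, and the highest pileup, 683, were both in this second group. Background enters p and fold, so a high −log10 p in a raised background can come with a low fold. The most frequent background was 12.8 in the DMSO list, 9.12 in the ATRA list and 13.14 in the Corin list, all below that of the combination list. The part of these differences in the calls was not tested.

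**Figure D2:**
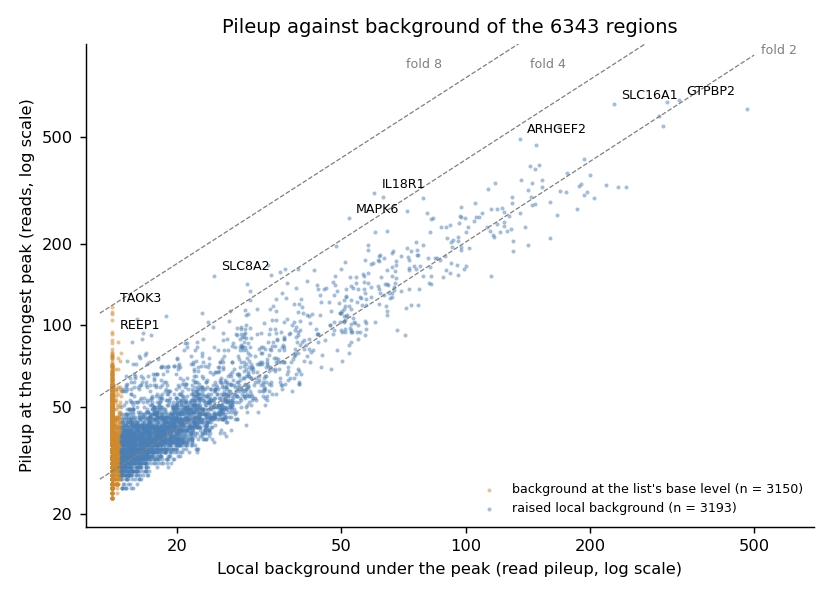
Pileup at the strongest peak (y axis, reads, log scale) against local background (x axis, reads, log scale) of the 6343 regions, 1 point a region, with dashed lines of equal fold. Regions at the base background (n = 3150) form the column at the left, where TAOK3 is highest at a pileup of 117. ARHGEF2, SLC16A1 and GTPBP2 lie in raised background.

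The 12 strongest regions by −log10 p were led by 1 in an intron of ARHGEF2, a microtubule-bound activator of RhoA, at chr1:155983722-155984090. Its −log10 p was 122, at a pileup of 491 over a background of 135 and a fold of 3.605, and the nearest peaks of the DMSO, ATRA and Corin lists were 2251, 2000 and 2226 bp away. Next came chr1:112957491-112957758, with a −log10 p of 118 and 39 bp from the start of SLC16A1, the lactate transporter MCT1. It overlapped an exon of the antisense gene SLC16A1-AS1 and lay 428 bp from a peak of the ATRA list. A region in an intron of a long noncoding gene, ENSG00000287264, at chr11:59547853-59548212 reached 116. All 3 had combination peaks within 10 kb that were far stronger, up to a −log10 p of 1546 near SLC16A1.

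IL18R1, a chain of the interleukin-18 receptor, had a member 2107 bp from its start at chr2:102357879-102358329. Its −log10 p was 114, with a pileup of 309 over 60.1 and a fold of 5.08, and peaks of all 3 other lists lay between 1528 and 1678 bp away. The region of LPIN2, which encodes a phosphatidate phosphatase, at chr18:2968391-2969044 (547 bp from its start) had a −log10 p of 102 at a fold of 4.68. The intron of MAPK6, an atypical MAP kinase, held one at chr15:52008728-52009225 whose −log10 p was 85.7 at a fold of 4.70. At chr13:99302002-99302253, within introns of both UBAC2 and GPR183, the latter a receptor for oxysterols on immune cells, the value was 78.

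Another 4 ranged from 65.7 to 71.2. They were an exon with UTR sequence of EPOR, the erythropoietin receptor (chr19:11377224-11377430, fold 2.18), an intergenic region 26483 bp from the start of CCN4 (chr8:133164427-133164852, fold 3.65), an intron of the sodium-calcium exchanger gene SLC8A2 (chr19:47438876-47439263, fold 6.01) and an intron of the kinase gene TAOK3 (chr12:118341861-118342356). The TAOK3 region had the lowest −log10 p of the 12 but the highest fold of all members, 7.90, from a pileup of 117 over 13.9. Its nearest ATRA peak was 3033 bp away and its nearest DMSO and Corin peaks 6086 and 6092 bp away.

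Of the 8 members with the highest fold, chosen after their values were seen, TAOK3 and SLC8A2 were also among the 12 with the highest −log10 p. After TAOK3 came an exon with UTR sequence of SLC38A9, a lysosomal amino acid sensor (fold 7.57), then introns of RGS6, a regulator of G-protein signalling (7.43), VWA8 (7.10) and the noncoding gene USP38-DT (6.43). Next were introns of REEP1, an endoplasmic reticulum shaping protein (6.29), DOCK5, an activator of Rac (6.29), and SLC8A2 (6.01). At REEP1, chr2:86243848-86244324, the nearest peaks were 14315 bp (DMSO), 14240 bp (ATRA) and 11251 bp (Corin) away. At RGS6, chr14:72543214-72543804, they were 7387, 7070 and 7210 bp away.

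A smaller share of the members than of all union regions lay at gene starts. Within 1 kb of an annotated start were 713 of 6343 members (11.2%, interval 10.5 to 12.04), against 18.2% of all union regions and 27.1% of those called in all 4 lists. To set the members beside regions of like strength, the regions with a counterpart were also weighted to the members' distribution over the 20 strength classes. That weighted share was 12.9%, and it was 10.5% in the regions of ATRA and the combination and 11.5% in those of Corin and the combination. Introns held 50.02% of the members, intergenic sequence 33.3% and exons 5.47%.

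Within 1 kb of a coding start were 475 members, at 457 genes. SLC16A1 and LPIN2, given above, were the strongest. Then came GTPBP2, a GTPase of ribosome rescue, 32 bp from its start at chr6:43627061-43627518, with a −log10 p of 65.1 at a fold of 2.08 and the highest pileup of all members. TPM4, a tropomyosin, had one at 60 bp (chr19:16079333-16079543, −log10 p 49.8), of which peaks of all 3 other lists were only 142 to 155 bp away. CDKN1B, the cell cycle inhibitor that blocks cyclin-dependent kinases in G1, had a member 741 bp from a start at chr12:12714212-12714433, with a −log10 p of 48.9, a pileup of 275 and a fold of 2.81. Its nearest peaks in the other lists lay 950 to 985 bp away.

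The other 5 promoter members of this ranking had −log10 p between 36.2 and 40.4. They lay near MON1A, a vesicle fusion factor, P2RY6, a receptor for extracellular UDP on macrophages, SUN2, a nuclear envelope protein, CD52, a leukocyte surface antigen, and HOXA13, a homeobox factor. The P2RY6 member, 291 bp from the start at chr11:73270075-73270296, had the highest fold of the 5 (3.32) and held a PU.1 motif and a RAR half-site.

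GC content was higher in the members than in the regions opened with ATRA. The mean GC content of the 200-bp summit windows was 54.0 ± 8.68% (SD over 6343 regions), against 50.8% in all union regions and 52.8% in the weighted regions with a counterpart. It was 43.8% in the regions of ATRA and the combination, 44.4% in those of ATRA alone, 52.3% in those of Corin and the combination and 53.6% in those of DMSO alone. Among the weakest combination regions, the lowest 5 of the 20 strength classes (23312 regions), members rose from 11.3% of the regions with under 40% GC to 35.0% of those with 60% or more. Over the same classes, the share also called in the ATRA list fell from 77.1% to 20.9%. The share in the DMSO list was 50.5% in the lowest class and 51.7% in the highest, and in the Corin list 41.2% and 47.8%. The part of GC content in the calls of the ATRA list was not tested.

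**Figure D3:**
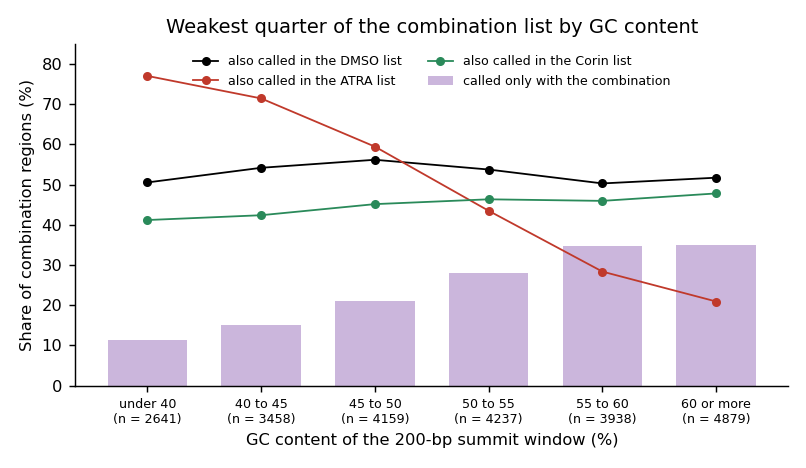
The 5 weakest of the 20 strength classes of combination regions (n = 23312) by GC content of the summit window (x axis, percent), with the share called only with the combination (bars, percent) and the share also called in the DMSO, ATRA and Corin lists (lines, percent). The bars go from 11.3% to 35.0% while the ATRA line goes from 77.1% to 20.9%. Regions are not replicates, and no error is drawn.

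The AP-1, PU.1, C/EBP, RUNX, IRF and CTCF motifs were in a smaller share of members than of all union regions. For 22 motifs the 200-bp windows were searched on both strands, and a match is a description of letters, not a binding site. AP-1 (TGANTCA) was in 5.77% of members (5.22 to 6.37), against 12.2% of all union regions, 9.79% of the weighted regions with a counterpart and 19.1% of the regions of Corin and the combination. It was in 5.98% of the regions of ATRA and the combination and 5.43% of those of ATRA alone, close to the members. PU.1 (GAGGAAGT) was in 2.95% (2.56 to 3.39), against 6.73%, 4.84% and, in the regions of ATRA and the combination, 15.4%. Its share was below that of the members in the regions of DMSO alone (2.22%) and Corin alone (1.47%). With a −log10 q of at least 5 the members' PU.1 share was 5.82% (limit in the combination list) or 4.96% (limit in all lists), above the weighted share of 4.84%, which was not recomputed at that limit. C/EBP (TTGCNNAA) was in 7.11% against 14.5% of all and 11.3% of the weighted regions, and RUNX (TGTGGTT) in 4.02% against 8.27% and 7.06%. The IRF motif (GAAA, 2 bases, GAAA) was in 1.26% against 3.07% and 2.34%, and the CTCF motif in 0.552% against 3.08% and 1.18%. In regions of DMSO alone and Corin alone, C/EBP was in 8.73% and 8.84%, and RUNX in 5.53% and 4.57%. IRF was in 1.22% and 1.21% of these, and CTCF in 1.89% and 0.200%. Regions of ATRA alone held C/EBP in 17.9%, RUNX in 9.03%, IRF in 6.67% and CTCF in 0.778%. No motif of the 22 was found in 40.7% of the members, against 27.0% of all union regions. That share was 37.2% in regions of DMSO alone, 34.7% in those of Corin alone and 27.9% in those of ATRA alone.

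The GFI1 motif (AATCACNGC) was in 54 members, or 0.851% (0.653 to 1.11). The shares were 0.627% in all union regions, 0.589% in the weighted regions and 1.98% in those of Corin and the combination. The RAR half-site (AGGTCA) was in 16.03% of members (15.2 to 16.96), against 13.01% of all and 14.6% of the weighted regions. Read backwards, without complement, the same letters were in 12.9%, 11.6% and 12.05%, so part of that order is present in the reversed letters as well. The reversed AP-1 letters were in 4.68% of members, 4.82% of all union regions and 4.86% of the weighted regions. For PU.1 the reversed shares were 1.83%, 1.35% and 1.49%, and for GFI1 0.0158%, 0.0763% and 0.0650%. The spacer-5 repeat was in 9 members (0.142%, 0.0747 to 0.269), against 0.0905% of all union regions, 0.0775% of the weighted regions and 0.484% of the regions of ATRA and the combination.

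**Figure D4:**
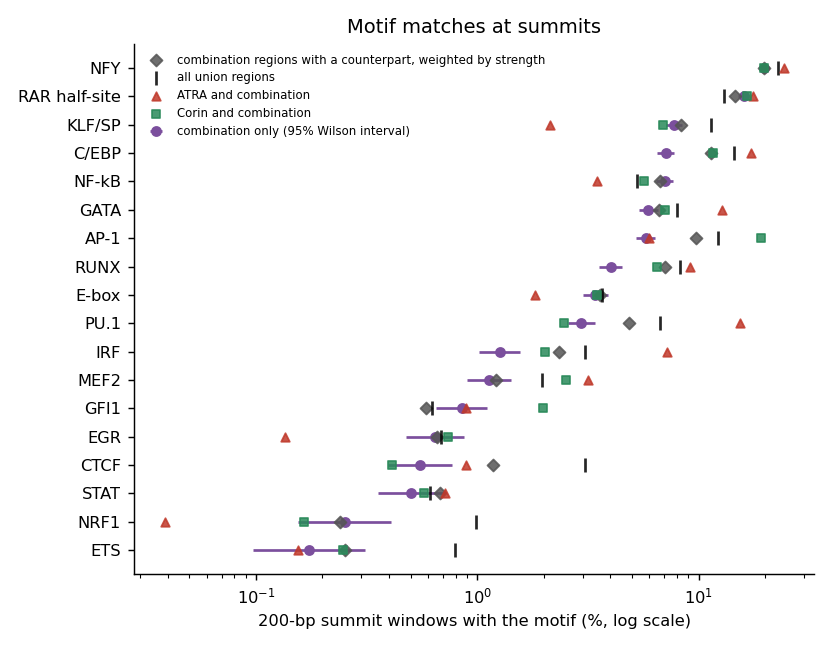
Share of 200-bp summit windows with each motif (x axis, percent, log scale) for the 18 motifs present in at least 0.5% of all union regions. Circles are the members with 95% Wilson intervals, and the other marks are the sets named in the key. AP-1 (5.77%) and PU.1 (2.95%) lie below the weighted regions with a counterpart, and GFI1 (0.851%) above them. With a −log10 q limit of 5 in the combination list, the PU.1 share of the members was 5.82%.

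Members of high fold differed in composition from the rest, and several of these changes with fold were also present in regions with a counterpart. From the 1456 members with a fold under 2 to the 124 with a fold of 4 or more, mean GC content went from 56.1% to 43.9%. The PU.1 share went from 1.37% to 14.5% (9.38 to 21.8, 18 of 124 regions), and C/EBP from 5.56% to 20.2% (14.0 to 28.1). GFI1 went from 0.618% to 4.84% (2.24 to 10.2, 6 regions), IRF from 1.03% to 4.84% and CTCF from 0.0687% to 4.03%. AP-1 was at 4.81% and 5.65%, and the share at gene starts at 13.4% and 8.87%. Combination regions with a counterpart were divided by the same fold limits. From the lowest to the highest class, PU.1 went from 3.59% to 8.27% in them and C/EBP from 9.43% to 16.3%. IRF went from 1.79% to 3.27%, CTCF from 0.868% to 5.29%, GFI1 from 0.636% to 0.715% and AP-1 from 8.79% to 13.3%. Their mean GC content was 54.8% with a fold under 2, 47.5% from 3 to 4 and 51.9% at 4 or more. Fold is part of the rule's own list, and these shares carry counting error only.

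**Figure D5:**
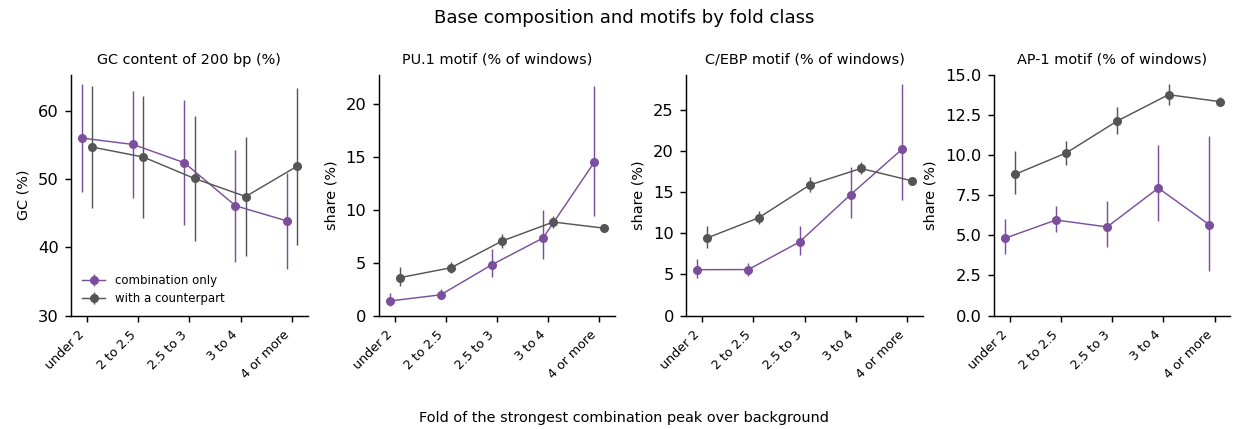
GC content (mean ± SD over regions, percent) and shares of windows with PU.1, C/EBP and AP-1 motifs (percent, 95% Wilson intervals) in 5 classes of the fold of the strongest combination peak (x axis), for members and for combination regions with a counterpart. In members, PU.1 goes from 1.37% to 14.5% and GC content from 56.1% to 43.9%. In regions with a counterpart, PU.1 goes from 3.59% to 8.27%.

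Genes of retinoid transport, metabolism and signalling were near 24 members. Of 30 listed genes, 11 had a member within 10 kb of the gene body (36.7%), while 3252 of 20033 protein-coding genes did (16.2%). Of the 315 union regions near these genes, 24 were members (7.62%), against 3.93% over all regions. Longer genes have more regions near them, and ALDH1A2, with 68 union regions, alone gave 6 of the 24, and no test was made over the list.

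Among the receptors, RARA, the main RAR of myeloid cells, had 2 members, the stronger in its intron at chr17:40315756-40315964 with a −log10 p of 36.3, a pileup of 298 over 130 and a fold of 2.29. RARB, itself a retinoid target, had 1 in an intron, 476095 bp from its start (−log10 p 8.02, fold 2.68). RARG and the 3 RXR genes had none. Among the genes that take up or hand over retinoids, STRA6, the membrane transporter of retinol, had 4 members (strongest 8.45, 9506 bp outside the gene). CRABP2, which carries retinoic acid to the nucleus, had 3 (strongest 7.92, 1753 bp outside the gene). For the enzymes, ALDH1A2, which makes retinoic acid, had 6, the strongest at chr15:58137778-58138260 whose −log10 p was 21.4 at a fold of 2.69, and ALDH1A3 had 1 (4.51). This ALDH1A2 member lay inside the gene body, but 359976 bp from the gene's start and within 1 kb of an annotated start. DHRS3, which reduces retinal back to retinol, had 2, the stronger in an intron at chr1:12587116-12587415 with 22.2 and a fold of 3.26. CYP26B1, which degrades retinoic acid, had 1 (6.63, 2736 bp outside the gene), and CYP26A1 and CYP26C1 had none. The known targets ASB2, HIC1 and TGM2 had 2, 1 and 1 members, the strongest at 8.90, 7.13 and 3.42. The strongest of ASB2 lay 9266 bp outside the gene. That of HIC1 lay 2686 bp outside, within 1 kb of an annotated start.

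Myeloid differentiation genes were close to the background: 6 of 38 (15.8%, against 16.2% of all coding genes) had a member, and members were 8 of 251 union regions (3.19%, against 3.93% of all). The strongest was in an exon of CD93, a receptor of monocytes, at chr20:23082976-23083128, with a −log10 p of 36.3 at a fold of 1.81. KLF4, a factor of monocyte differentiation, had one 4859 bp upstream of its start at chr9:107495241-107495486 (16.7, fold 3.75), and GFI1, the repressor that recruits CoREST, one in an exon at chr1:92473762-92474086 (14.7, fold 2.15). Among CoREST and p300 genes, 4 of 21 had a member and members were 12 of 224 regions (5.36%). Of these 12, 8 were at GSE1, a CoREST-associated protein whose gene had 67 union regions near it (strongest 12.5). Another 2 were at CTBP2, a co-repressor (strongest 7.19), and 1 each at RCOR1 and GFI1. KDM1A, HDAC1 and HDAC2, the enzymes Corin binds, had none.

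Neuronal genes known as REST targets had a member at 8 of 22 (36.4%, against 16.2% of all coding genes), and members were 10 of 163 regions (6.13%, against 3.93% of all). As for the retinoid list, genes with more regions near them weigh more, and no test was made. All 10 were weak: the strongest, near CHGA, a granin of secretory granules, and SYP, a synaptic vesicle protein, each had a −log10 p of 8.49 at a fold of 2.74, and CELSR3, an adhesion receptor, followed at 6.64. Those near CHGA and SYP lay 6534 and 6744 bp outside the gene bodies. Interferon-stimulated genes had one at 6 of 28 (21.4%, against 16.2% of all coding genes), and members were 6 of 158 regions (3.80%, against 3.93% of all). IFIT3 (8.02), OAS1 (6.18) and IRF9 (4.97) led them. Of 24 cell cycle arrest and apoptosis genes, 4 (16.7%, against 16.2% of all coding genes) had a member, namely CDKN1B, BTG2, BBC3 and RB1. Members were 6 of 237 regions (2.53%, against 3.93% of all). The stronger of 2 members at RB1, in an intron of this retinoblastoma gene at chr13:48546416-48546688, had a −log10 p of 23.6 at a fold of 4.003, and BTG2, an antiproliferative gene, reached 4.65. Of 20 AP-1 and immediate early genes, 1 (5%, against 16.2% of all coding genes) had a member, MYC, with a −log10 p of 10.3 at 11536 bp from its start. Members were 1 of 122 regions near these genes (0.820%, against 3.93% of all).

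Of 2858 windows of 1 Mb with a union region, 1662 held a member, and 286 windows sufficed to hold 50% of them. The same share took 464 windows for the regions of DMSO alone, 674 for ATRA alone, 435 for Corin alone and 454 for ATRA and the combination, sets that differ in size. Members were 8.84% of the union regions of chromosome 13, 6.47% of chromosome 20 and 5.84% of chromosome 15, and 1.63% of chromosome X. Chromosome 13 was also high in regions of DMSO alone, 14.4% against 10.2% over all chromosomes. Its regions of Corin alone were 12.9% against 8.05%, and those of Corin and the combination 2.73% against 1.51%. Regions of ATRA alone were lower there, 7.71% against 11.4%, as were those of ATRA and the combination, 2.33% against 3.20%. The window from 90 to 91 Mb of chromosome 13 held most, 54 of 181 union regions. That window also held 31 regions of DMSO alone and 15 of Corin and the combination. The window from 1 to 2 Mb of chromosome 2 had 35 members among 56 regions (62.5%) and 3 regions of DMSO alone. At the 5 regions of that window called in all 4 lists, the median log2 ratio of pileup, combination over DMSO, was −0.74 relative to all such regions, and in the chromosome 13 window it was −0.15 over 19 regions. The same ratios over ATRA were 0.26 and 0.61, and over Corin −0.51 and −0.29. The part of copy number or regional depth in these clusters was not tested.

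The 5 genes with the most members within their bodies were long, from 688 kb for CDH4 to 1475 kb for GPC5. DLGAP2, a postsynaptic scaffold, had 29 of its 71 union regions, CDH4, a cadherin of the nervous system, 26 of 37 (70.3%), and PTPRN2, a receptor-type phosphatase of secretory granules, 26 of 118. CAMTA1, a calmodulin-binding transcription factor, had 14 of 86 and GPC5, a glypican, 12 of 97. GPC6, SMOC2 and SORCS2 also had 12 and follow GPC5 alphabetically. SMOC2, a matricellular protein named after its values were seen, had 12 of only 15 regions. The highest −log10 p was 10.3 in DLGAP2, 11.4 in CDH4, 10.1 in PTPRN2, 23.2 in CAMTA1 and 12.1 in GPC5. In CDH4, DLGAP2 and PTPRN2 their mean GC content was 61.1%, 58.5% and 61.7%.

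Some members lay near one another. Another member was within 10 kb of 1228 members (19.4%), against 14.7% of the weighted regions with a counterpart. A region of ATRA and the combination was within 10 kb of 6.35% of members and 6.0% of the weighted regions, and a region of Corin and the combination near 6.68% and 5.93%. A region called in all 4 lists was within 10 kb of 45.2% of members and 51.3% of the weighted regions. At the 2693 such neighbours the median log2 pileup ratio, relative to all regions called in all lists, was −0.04 for the combination over DMSO, 0.00 over ATRA and 0.01 over Corin.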

How the data were processed

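Peaks of accessible chromatin in U-937 cells (ATAC-seq) came from 4 groups of 2 samples, grouped per the labels. Each group had 1 deposited narrowPeak list; the labels do not say that the samples were separate cultures. The submitters' processing notes name cutadapt, Bowtie2, SAMtools, Picard, MACS2 and hg38, without their roles. The authors deposited for each peak a fold (a ratio over local background), −log10 p and −log10 q values, an integer score that was not used, and a summit offset. Per the file values, p taken as a Poisson probability and fold as (pileup + 1)/(background + 1) gave a whole pileup, within 0.05 reads, for at least 99.96% of peaks in each list.

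Peaks overlapping by at least 1 bp were merged into union regions (Python 3.11.15, pandas 2.3.3, numpy 2.4.6, scipy 1.17.1), and bedtools 2.31.1 gave the same number of members. Positions and sequences came from hg38 and GENCODE release 44. No test was made, since each group has 1 list. The script was tested on simulated data. The members, the 7 gene lists and the 22 motifs were chosen with earlier results of these data known. Named were the 12 strongest members, the 10 strongest within 1 kb of a coding start, the strongest of each retinoid gene within 10 kb, the 3 genes with the strongest members in each other list, and the 5 genes with most members. Sequences followed the first part and the 4 strongest spacer-5 repeats, of which some are not printed. The result for 1 of the 12 strongest members is not reported here. Alternatives were peak limits, overlap rules, list length, window sizes and promoter definitions.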

Additional observations from a re-analysis of the deposited data

How the results depend on the processing

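No paired analysis was possible because each group has 1 list with its samples combined, and for the same reason no sample could be left out. The count of 6343 regions became 3147 with a −log10 q of at least 5 in all lists, 2251 with that limit in the combination list only, and, in an alternative chosen after seeing the data, 2574 when the other lists were also limited to a −log10 p of 5. With the lists cut at a shared lowest −log10 p, also chosen after seeing the data, it was 6216. The other 6 alternatives gave counts up to 7724 and within 1.5 times of 6343. The share of the combination list (6.80%) became 3.73% and 2.67% under the same q limits, 5.37% with a −log10 p of 5 in all lists, 6.58% with peaks within 150 bp merged, 7.30% with lists of equal length, 5.70% with no other region within 500 bp and 8.14% when under 50% of bases had to be covered. The promoter share (11.2%) became 22.3% with a limit of 2.5 kb and 7.49% with coding starts only. Over all alternatives, members near retinoid genes ranged from 12 to 38, and the AP-1 share from 3.03% to 10.6%, PU.1 from 2.14% to 5.82%, GFI1 from 0.457% to 1.48% and the spacer-5 repeat from 0.0788% to 0.236%. Unknown depth and the weakness of most members limit these counts.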

Other observations

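Members were more frequent toward the chromosome ends. Within 2 Mb of an end they were 526 of 8129 union regions (6.47%), and beyond 10 Mb they were 3.59% of 130960. Mean GC content of all union regions was 58.9% and 49.8% in the same zones. From the first zone to the second, regions of DMSO alone went from 12.8% to 9.89%, those of Corin alone from 10.1% to 7.87% and those of Corin and the combination from 2.08% to 1.43%, all in the same direction as the members. Regions of ATRA and the combination went from 1.501% to 3.41%, and those of ATRA alone from 7.41% to 11.9%. No test was made, since regions are not replicates.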
